A study of Mus musculus with 6 samples.

Results

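Extracellular matrix and smooth muscle genes were followed on the arrays of sorted intestinal stem cells from mice given DBZ or vehicle. The 48 genes were listed by name, as genes of collagens, basement membrane, proteoglycans, other matrix proteins, fibroblasts and contractile cells. Of these, 47 had a probe set with a single gene symbol, and where a gene had several, the one brightest on average over the 6 arrays (mean log2) stands for it. They are 47 of 18193 genes measured, and 41 of them had a mean above that of the median gene. The DBZ group was 3 Lgr5-EGFP-IRES-creERT2 mice given DBZ, a gamma-secretase inhibitor, and the vehicle group was 3 mice of that genotype given DMSO. Small intestinal cells with high GFP were sorted from each mouse 24 h after treatment, and total RNA was hybridised to Affymetrix arrays to profile the response to NOTCH1 inhibition. All 6 mice therefore carried the EGFP and CreERT2 cassette at Lgr5, the gate was high GFP, and no source used here gives age, sex or the purity of the sort. The titles place each array in its group, while the description field names DMSO for all 6, so the group labels of the 3 DBZ arrays rest on their titles.

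The extracellular matrix is the protein scaffold outside cells. Fibroblasts secrete fibrillar collagens, which assemble into ropes, and small proteoglycans and glycoproteins that shape and link them, while a thin basement membrane of type IV collagen, laminins and nidogens underlies the epithelium and surrounds muscle and vessels. In the intestine, smooth muscle cells and myofibroblasts lie around the crypts and in the muscle layers, and contract by means of smooth muscle actin and myosin. These genes are used as markers of mesenchyme, the connective tissue and muscle, and not of the epithelium that holds the Lgr5 stem cells.

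Array medians lay between 44.9 and 46.3 intensity units, and intensities are on the linear scale of the authors' deposited values. Epcam, a surface protein of epithelial cells, had intensities of 19609, 19198 and 17187 in the DBZ arrays, against 16997, 19018 and 18807 in the vehicle arrays, and Lgr5 had intensities of 242, 209 and 239 in the DBZ arrays, against 204, 259.6 and 271 in the vehicle arrays; the groups overlapped for both. Olfm4, a Notch-dependent stem cell gene, had intensities of 35.9, 18.6 and 29.9 in the DBZ arrays, against 3627, 4234 and 5177 in the vehicle arrays, with no overlap. The actin control probes have a 3' over 5' ratio that grows as RNA degrades. It was 1.51 to 1.57 in DBZ arrays and 1.61 to 2.22 in vehicle arrays, so every vehicle array lay above every DBZ array. The Gapdh ratio was 1.05 to 1.10 in DBZ arrays and 1.07 to 1.42 in vehicle arrays, so the groups overlapped. Vehicle array 1 had the highest value of both ratios, 2.22 and 1.42. The part of RNA quality in the results was not tested.

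Matrix and contractile genes were higher in the sorted cells of DBZ mice. Of the 47 genes measured, 20 rose and 0 fell (limma fitted to every gene, adjusted p under 0.05 by Benjamini-Hochberg), against 3.82% of all genes higher and 1.52% lower, or 5.34% in either direction. The log2 fold change was positive for 45 of 47 members, against 45.4% of all genes. In 40 of 47 members every DBZ array lay above every vehicle array, where this held for 17.3% of all genes, and in 1 of 47 every DBZ array lay below, against 15.8%. The median log2 fold change of DBZ over vehicle was 0.63 for the members and -0.02 for all genes, on the log2(intensity + 16) scale used throughout. At an unadjusted p under 0.05, 41 members were higher and 0 lower (limma), against 15.1% of all genes higher. Each array measured all sorted cells of a mouse together, so more cells of a type and more RNA per cell cannot be told apart.

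How many members passed the threshold changed with the arrays kept, while the median difference changed little. Without DBZ replicate 1, 2 or 3, 21, 7 and 5 members were higher (limma, adjusted p under 0.05), against 7.17%, 0.945% and 1.53% of all genes in the same fits. Without vehicle replicate 1, 2 or 3, 0, 0 and 4 members were higher, against 0.231%, 0.0879% and 0.187% of all genes. At an unadjusted p under 0.05 (limma), 39, 39 and 41 members were higher and 1, 0 and 0 lower in these 3 fits. Of all 18193 genes, 3894, 3994 and 3805 had such a p in either direction. The median log2 fold change of the members stayed between 0.60 and 0.72 in these 6 fits. Col1a2 and Lum kept their calls in 4 of the 6 fits each, the most of any member.

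**Figure D1:**
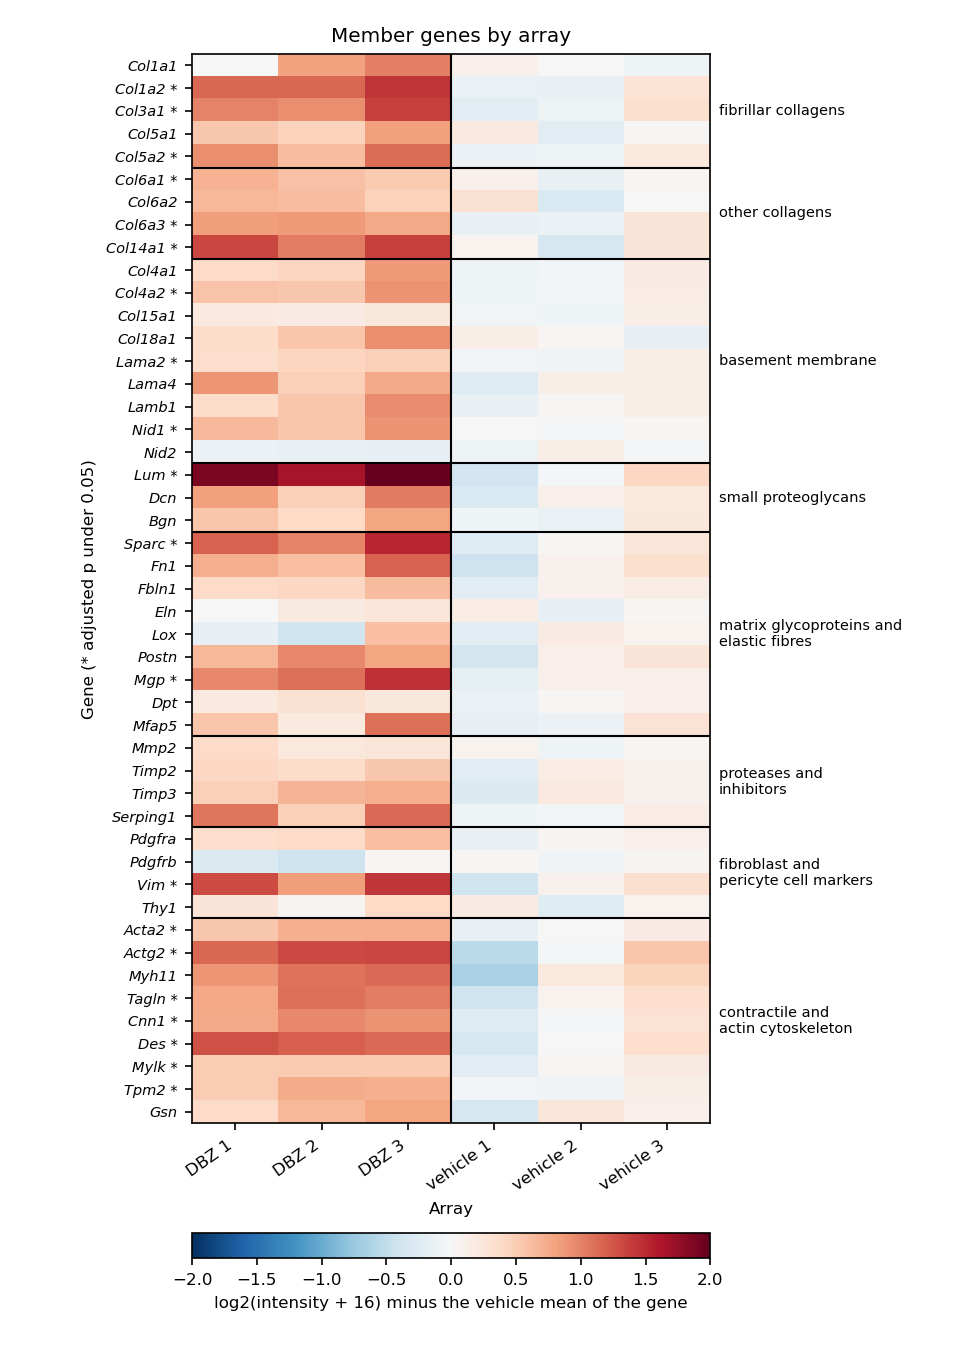
Each row is a member gene and each column an array, with the 3 DBZ arrays left of the 3 vehicle arrays. Colour gives log2(intensity + 16) minus the gene's mean over the vehicle arrays, and stars mark the 20 genes past the adjusted p threshold. Most rows are red in all 3 DBZ columns, while the DBZ columns of Nid2, Lox and Pdgfrb hold blue.

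**Figure D2:**
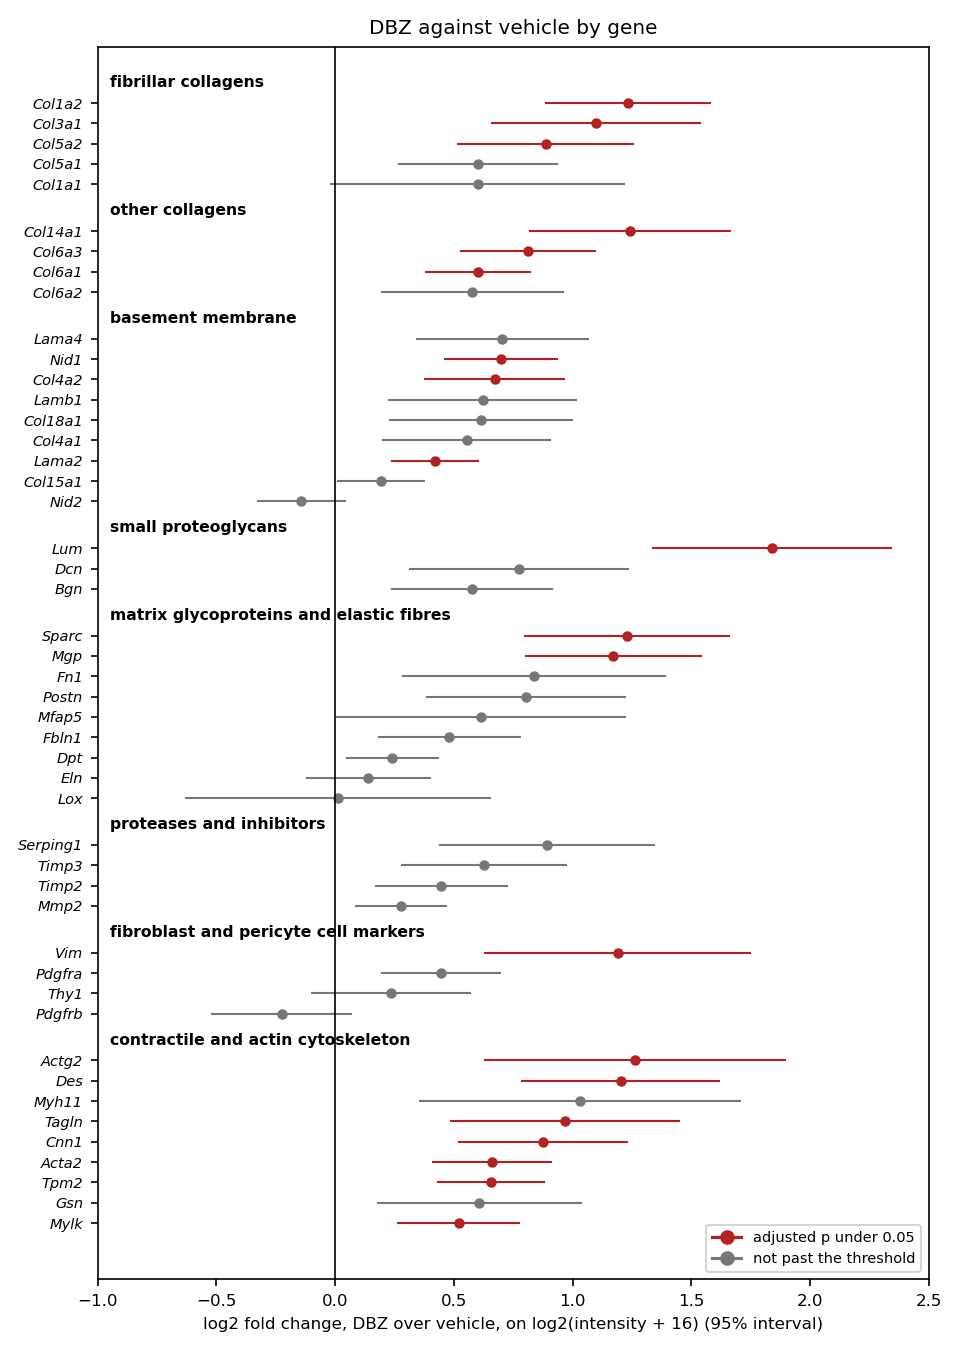
Points give the log2 fold change of DBZ over vehicle and lines its 95% interval, by role. Red marks the 20 genes past the threshold, and Lum has the largest value, 1.84.

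Among the fibrillar collagens, 3 of 5 rose, against 3.82% of all genes. Col1a2, the alpha 2 chain of type I collagen, had intensities of 3415, 3412 and 4148 in DBZ arrays 1, 2 and 3, against 1406, 1389 and 1862 in vehicle arrays 1, 2 and 3. All 3 DBZ arrays lay above all 3 vehicle arrays, at 2.36 times the vehicle mean, with a log2 fold change of 1.24 ± 0.14 (SE, n = 3 each; limma, adjusted p = 0.0215). Col3a1, the chain of type III collagen, had intensities of 5281, 5068 and 6856 in the DBZ arrays, against 2256, 2470 and 3323 in the vehicle arrays. Its groups did not overlap either, DBZ array 3 was the highest, and the log2 fold change was 1.10 ± 0.18 (limma, adjusted p = 0.0337). Col5a2, a chain of the type V collagen that helps start fibrils, rose by 0.89 ± 0.15 (log2 difference ± SE; limma, adjusted p = 0.0364).

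The partner chains did not pass. Col5a1, which assembles with Col5a2, had intensities of 243, 230.4 and 298 in the DBZ arrays, against 188, 138 and 167 in the vehicle arrays, apart in the groups, with a log2 difference of 0.60 ± 0.14 (limma, adjusted p = 0.0604). Col1a1, the alpha 1 chain that pairs with Col1a2 in type I collagen, had intensities of 152, 276 and 319.8 in the DBZ arrays, against 163, 151 and 142 in the vehicle arrays. DBZ array 1 lay inside the vehicle range, while the other two DBZ arrays lay above it, and the 95% interval of the log2 difference was -0.02 to 1.22 (limma, adjusted p = 0.199). The second probe set of Col1a1 had all DBZ arrays above all vehicle arrays and a log2 difference of 0.79, so the groups overlapped on the brighter probe set and not on the other.

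Of the other collagens, 3 of 4 rose, against 3.82% of all genes. Col14a1, a collagen that sits on the surface of fibrils, had intensities of 282, 223 and 288 in the DBZ arrays, against 108, 77.6 and 125 in the vehicle arrays, a log2 fold change of 1.24 ± 0.17 (limma, adjusted p = 0.0270). Its groups were well apart on this probe set and on a second one, at 0.68, but not on the remaining one, which was dim and at -0.01. Type VI collagen forms beaded filaments around cells, and its chains Col6a3 and Col6a1 rose by 0.81 ± 0.12 and 0.60 ± 0.09 (log2 difference ± SE; limma, adjusted p = 0.0275 and 0.0297). Col6a2, the other chain, had intensities of 1254, 1219.7 and 1092 in the DBZ arrays, against 982, 639 and 783 in the vehicle arrays, apart in the groups, with a log2 difference of 0.58 ± 0.16 (limma, adjusted p = 0.0831).

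Of 9 basement membrane genes 3 rose, against 3.82% of all genes, and the median log2 fold change of the 9 was 0.61. Nid1, nidogen, which links laminin to type IV collagen, had intensities of 666, 619 and 787 in the DBZ arrays, against 419, 404 and 429 in the vehicle arrays. The vehicle arrays lay within a narrow band and all DBZ arrays lay above it, with a log2 fold change of 0.70 ± 0.10 (limma, adjusted p = 0.0270). Col4a2, a chain of the type IV collagen network, rose by 0.67 ± 0.12, and Lama2, the laminin alpha chain of muscle, by 0.42 ± 0.07 (log2 difference ± SE; limma, adjusted p = 0.0393 and 0.0385).

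The other 6 basement membrane genes did not pass. Col4a1, which assembles with Col4a2, was at 0.55 ± 0.14, Lamb1, a widely used laminin beta chain, at 0.62 ± 0.16 and Lama4, a laminin chain of vessels and mesenchyme, at 0.70 ± 0.15 (log2 difference ± SE; limma, adjusted p = 0.0779, 0.0775 and 0.0515). Col18a1, the collagen that gives rise to endostatin, was at 0.61 ± 0.16 and the dim Col15a1 at 0.19 ± 0.07 (log2 difference ± SE; limma, adjusted p = 0.0759 and 0.165). In these 5 genes every DBZ array lay above every vehicle array, as in 17.3% of all genes. Nid2, the other nidogen, ran the other way at 70.4, 69.2 and 68.4 in the DBZ arrays, against 71.4, 87.1 and 76.7 in the vehicle arrays, with every DBZ array below every vehicle array by a small margin. Its log2 difference was -0.14 ± 0.08 and its mean lay below that of the median gene (limma, adjusted p = 0.296).

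The small leucine-rich proteoglycans bind collagen fibrils and control their thickness. Lum, lumican, had intensities of 1112, 948 and 1212 in DBZ arrays 1, 2 and 3, against 221, 284 and 392 in vehicle arrays 1, 2 and 3, and its lowest DBZ array lay far above its highest vehicle array. Its log2 fold change of 1.84 ± 0.21 was the largest of all members, at 3.65 times the vehicle mean (SE, n = 3 each; limma, adjusted p = 0.0200). Dcn, decorin, had intensities of 5233, 4133 and 6115 in the DBZ arrays, against 2399.6, 3183 and 3433 in the vehicle arrays, and Bgn, biglycan, at 1508, 1358 and 1777 in the DBZ arrays, against 962, 931 and 1208 in the vehicle arrays. The groups were apart for both, but neither passed, with log2 differences of 0.77 ± 0.19 and 0.58 ± 0.14 (limma, adjusted p = 0.0683 and 0.0671).

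Of 9 matrix glycoproteins and elastic fibre genes, 2 rose, against 3.82% of all genes. Sparc, a secreted protein that binds collagen, had intensities of 1399, 1221 and 1769 in the DBZ arrays, against 504, 619 and 718 in the vehicle arrays, a log2 fold change of 1.23 ± 0.18 (limma, adjusted p = 0.0275). Mgp, an inhibitor of calcification, had intensities of 2049, 2248 and 2891 in the DBZ arrays, against 905, 1117 and 1125 in the vehicle arrays, a log2 fold change of 1.17 ± 0.15 (limma, adjusted p = 0.0252). For both, the lowest DBZ array lay above the highest vehicle array, and DBZ array 3 was the highest of all.

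Fn1, fibronectin, Postn, periostin, and Fbln1, fibulin, had groups apart and log2 differences of 0.84 ± 0.23, 0.80 ± 0.17 and 0.48 ± 0.12, none past the threshold (limma, adjusted p = 0.0832, 0.0531 and 0.0743). Dpt, dermatopontin, which binds decorin, was also apart in the groups, at 0.24 ± 0.08 (log2 difference ± SE; limma, adjusted p = 0.124). The other 3 genes, Eln, Mfap5 and Lox, had means below that of the median gene, and their groups overlapped. Eln, elastin, had intensities of 76.0, 87.7 and 92.6 in the DBZ arrays, against 85.9, 65.6 and 77.3 in the vehicle arrays, Mfap5, a microfibril protein, at 109.7, 82.0 and 169 in the DBZ arrays, against 60.3, 62.9 and 89.3 in the vehicle arrays, and Lox, the enzyme that cross-links collagen and elastin, at 94.2, 78.0 and 171 in the DBZ arrays, against 89.2, 122 and 114 in the vehicle arrays. DBZ array 3 was the highest of the 6 for Lox and Mfap5, and the 95% interval of the Lox difference was -0.63 to 0.65. The sign of that difference turned in 4 of the alternatives tried.

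None of the 4 genes of matrix proteases and inhibitors passed the test. In all 4 every DBZ array lay above every vehicle array, as in 17.3% of all genes. All 4 were higher at an unadjusted p under 0.05 (limma), against 15.1% of all genes. Serping1, the inhibitor of complement C1, was nearest to the threshold at 2186, 1439.7 and 2284 in the DBZ arrays, against 969, 992 and 1146 in the vehicle arrays, a log2 difference of 0.89 ± 0.19 (limma, adjusted p = 0.0505). Timp3 and Timp2, inhibitors of metalloproteinases, were at 0.63 ± 0.14 and 0.45 ± 0.11, and the gelatinase Mmp2 was at 0.28 ± 0.08 (log2 difference ± SE; limma, adjusted p = 0.0594, 0.0743 and 0.0911).

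Cell markers of mesenchyme moved unequally. Vim, the intermediate filament vimentin, had intensities of 2831, 2031 and 3075 in the DBZ arrays, against 853, 1198 and 1421 in the vehicle arrays, apart in the groups, with a log2 fold change of 1.19 ± 0.23 (limma, adjusted p = 0.0461). Pdgfra, the receptor that marks many intestinal fibroblasts, had intensities of 931, 947 and 1102 in the DBZ arrays, against 647, 748 and 779.9 in the vehicle arrays, also apart, at 0.45 ± 0.10 (log2 difference ± SE; limma, adjusted p = 0.0601). Its other, dimmer probe sets were at 0.15 and -0.09, and the groups overlapped on both. With its probe sets averaged, Pdgfra was at 0.17 (limma, adjusted p = 0.14). Pdgfrb, the receptor of pericytes and other mural cells, had intensities of 357, 324 and 446 in the DBZ arrays, against 446, 416 and 453 in the vehicle arrays. It was the only member other than Nid2 with a negative difference, -0.22 ± 0.12 with a 95% interval of -0.52 to 0.07, its groups overlapped, and its second probe set was at 0.00 (log2 difference ± SE; limma, adjusted p = 0.297). Thy1, a surface protein of fibroblasts and also of T cells, was dim and overlapped, at 0.24 ± 0.14 (log2 difference ± SE; limma, adjusted p = 0.333).

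Contractile and actin cytoskeleton genes rose in 7 of 9 cases, against 3.82% of all genes. In all 9 the groups were apart with DBZ above, against 17.3% of all genes. Acta2, smooth muscle alpha actin, had intensities of 10327, 11698 and 11795 in DBZ arrays 1, 2 and 3, against 6388, 7071 and 7971 in vehicle arrays 1, 2 and 3. The DBZ mean was 1.58 times the vehicle mean, a log2 fold change of 0.66 ± 0.10 (SE, n = 3 each; limma, adjusted p = 0.0308). Actg2, the gamma actin of visceral smooth muscle, had intensities of 7334, 8312 and 8362 in the DBZ arrays, against 2287, 3275 and 4858 in the vehicle arrays. Its vehicle arrays were spread widely and its DBZ arrays were not, and the log2 fold change was 1.27 ± 0.26 (limma, adjusted p = 0.0492). Des, desmin, the intermediate filament of muscle, had intensities of 2906, 2778 and 2653 in the DBZ arrays, against 935, 1204 and 1524 in the vehicle arrays, a log2 fold change of 1.20 ± 0.17 (limma, adjusted p = 0.0275).

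Tagln, transgelin, an actin-binding protein of smooth muscle, had intensities of 7523, 9471 and 8915 in the DBZ arrays, against 3308, 4609 and 5529 in the vehicle arrays, and Cnn1, calponin, which inhibits actomyosin, at 3249, 3728 and 3559 in the DBZ arrays, against 1584, 1869 and 2333 in the vehicle arrays. Both were apart in the groups and rose by 0.97 ± 0.20 and 0.87 ± 0.15 (log2 difference ± SE; limma, adjusted p = 0.0487 and 0.0339). Mylk, the kinase that switches on smooth muscle myosin, and Tpm2, a tropomyosin along the actin filament, rose by 0.52 ± 0.10 and 0.66 ± 0.09 (log2 difference ± SE; limma, adjusted p = 0.0478 and 0.0270). Myh11, the smooth muscle myosin heavy chain, had intensities of 4847, 5595 and 5784 in the DBZ arrays, against 1669.7, 3047 and 3566 in the vehicle arrays, a larger log2 difference than that of Mylk but with a wider spread in vehicle, 1.03 ± 0.28 (limma, adjusted p = 0.0819). Gsn, gelsolin, which severs actin filaments, was at 0.61 ± 0.18 (log2 difference ± SE; limma, adjusted p = 0.0947). Its other 5 probe sets lay between -0.05 and 0.40, and the groups were apart in 1 of them.

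**Figure D3:**
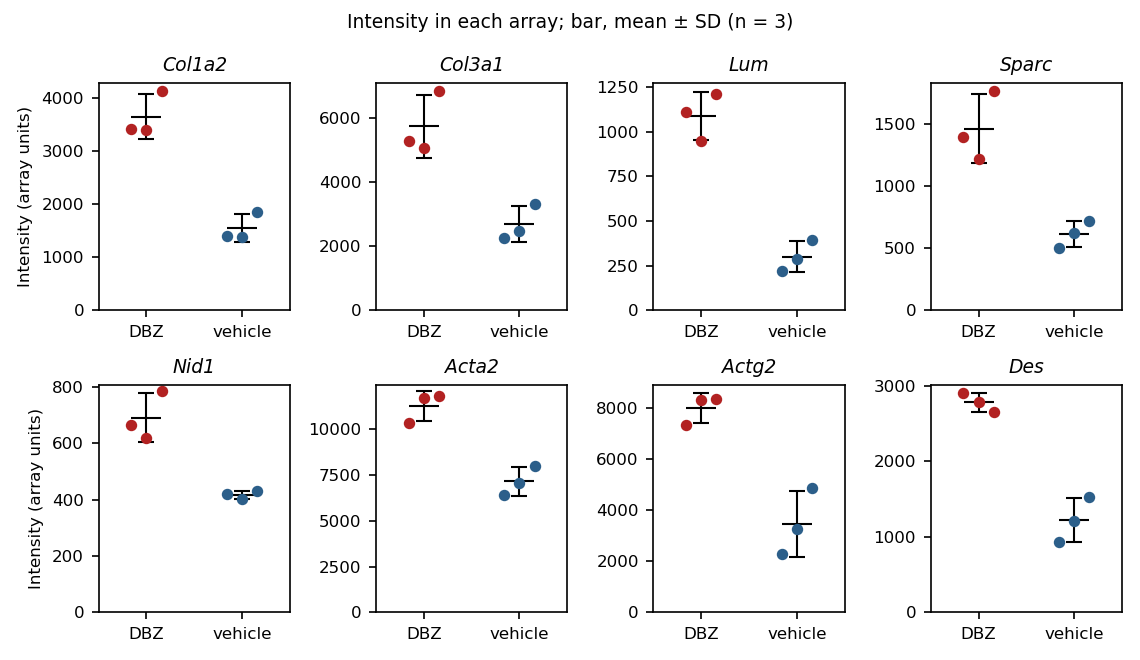
Points give the intensity in each of the 3 DBZ and 3 vehicle arrays for 8 members past the threshold, on axes that start at 0, and bars give the mean and SD. In all 8 panels every DBZ point lies above every vehicle point.

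Promoter sequences of 29 of the 48 listed genes were found in RefSeq tables of build GRCm38.p6. Shown here are those of Acta2 of the contractile genes, Lama2 of the basement membrane and Col1a2 of the fibrillar collagens, all past the threshold and from different roles, because the letters of well known promoter elements lie in them. Capitals mark, in Acta2 and Lama2, matches to the CArG box, the element bound by serum response factor in muscle genes, with at most 1 base off in its A/T core. In Col1a2 they mark the CCAAT box. All are written 5′ to 3′ on the strand of the gene, at chr19:34255324-34255623 (minus strand), chr10:27616893-27617192 (minus strand) and chr6:4505368-4505667 (plus strand).
Acta2: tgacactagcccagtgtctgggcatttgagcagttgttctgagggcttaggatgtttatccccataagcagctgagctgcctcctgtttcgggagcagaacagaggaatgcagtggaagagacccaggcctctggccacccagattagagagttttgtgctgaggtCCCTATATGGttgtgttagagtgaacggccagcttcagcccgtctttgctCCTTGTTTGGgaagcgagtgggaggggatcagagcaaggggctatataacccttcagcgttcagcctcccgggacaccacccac
Lama2: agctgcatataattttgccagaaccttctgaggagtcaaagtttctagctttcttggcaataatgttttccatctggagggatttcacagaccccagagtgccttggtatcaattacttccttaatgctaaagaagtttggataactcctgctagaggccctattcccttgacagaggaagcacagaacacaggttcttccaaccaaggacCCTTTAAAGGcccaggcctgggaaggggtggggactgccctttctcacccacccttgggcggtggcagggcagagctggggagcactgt
Col1a2: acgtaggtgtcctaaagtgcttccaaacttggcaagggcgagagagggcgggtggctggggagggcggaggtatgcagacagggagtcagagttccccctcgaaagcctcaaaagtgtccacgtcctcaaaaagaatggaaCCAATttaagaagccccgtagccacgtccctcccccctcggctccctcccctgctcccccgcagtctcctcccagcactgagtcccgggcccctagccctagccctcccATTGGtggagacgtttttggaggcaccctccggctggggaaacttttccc

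In Acta2 the matches began 84 and 34 bases before the annotated start, and both had 1 base off the core. The match of Lama2 began 39 bases before the start and had none off. In Col1a2 the letters CCAAT began 109 bases before the start, and their reverse complement lay at the start itself. Searched on both strands, a CArG box with at most 1 base off was in 7 of 35 promoter windows of members, and in 9.98% of all 32851 windows of the same length. Of the 6 contractile genes with a promoter, 2 held one, Acta2 and Gsn. With no base off it was in 2.86% of the members' windows and 1.63% of all windows. The letters CCAAT were in 37.1% of the members' windows and 37.4% of all windows, and TATAAA, the TATA box, in 11.4% and 13.6%, also on both strands. Col1a2 also held a CArG box with 1 base off, which began 228 bases before the start and is not in capitals. A match describes the letters in the window and not binding.

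Within the groups the members did not all follow the same arrays. DBZ array 3 held the highest DBZ value for 35 of 47 members, against 32.4% of all genes, and DBZ array 2 held the lowest for 22 of 47, against 26.7%. In the vehicle group, array 3 held the highest vehicle value for 34 of 47, against 26.0%. Vehicle array 1, the array with the highest actin and Gapdh ratios, was the lowest vehicle array for 31 of 47 members, against 38.7% of all genes. Averaged over the 47 members, log2(intensity + 16) was 9.89, 9.87 and 10.11 in DBZ arrays 1, 2 and 3, against 9.12, 9.25 and 9.43 in vehicle arrays 1, 2 and 3. The lowest DBZ array lay above the highest vehicle array. These averages describe chosen genes and were given no test.

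The roles did not follow the same order of arrays. Fibrillar collagens averaged 9.74, 9.81 and 10.16 in the DBZ arrays and 8.98, 8.90 and 9.17 in the vehicle arrays. Contractile genes averaged 12.51, 12.68 and 12.68 in the DBZ arrays and 11.43, 11.81 and 12.04 in the vehicle arrays. DBZ array 3 was the highest DBZ array for the fibrillar collagens but level with DBZ array 2 for the contractile genes. Vehicle array 1 was the lowest vehicle array for the contractile genes, and vehicle array 2 for the fibrillar collagens. Within an array, the contractile mean exceeded the fibrillar mean by 2.78, 2.88 and 2.52 in DBZ arrays and by 2.45, 2.90 and 2.87 in vehicle arrays, and these ranges overlapped. The difference of DBZ and vehicle role means ranged from 0.41 for the cell markers to 1.06 for the small proteoglycans.

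**Figure D4:**
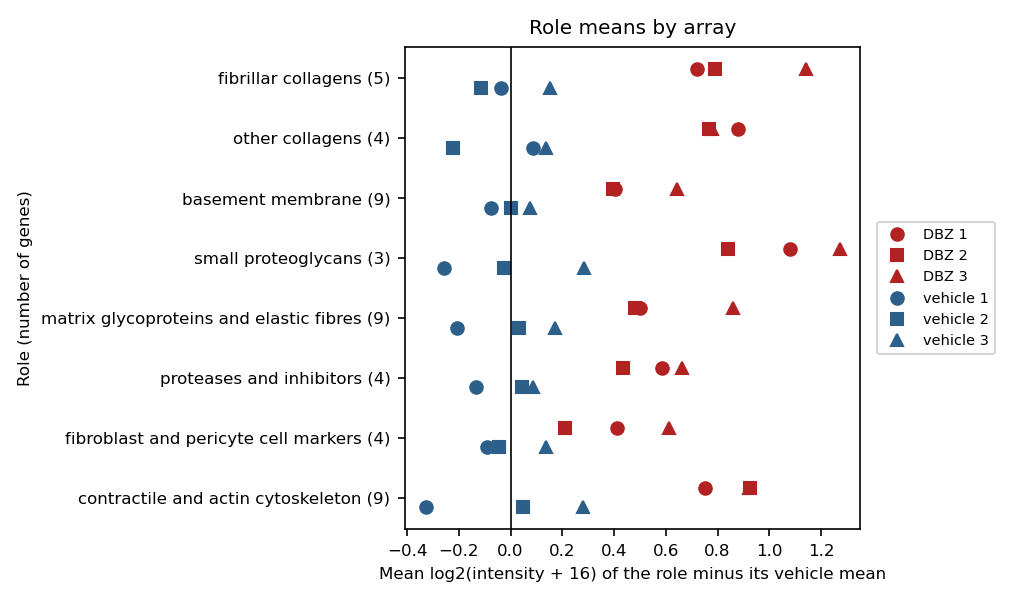
Each point is the mean log2(intensity + 16) of the genes of a role in 1 array, minus the vehicle mean of that role, with DBZ arrays in red and vehicle arrays in blue and symbols for the replicate. In every role the 3 DBZ points lie to the right of the 3 vehicle points.

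The 47 members had 105 probe sets in all, and 32 members had more than 1. Of the 58 probe sets not used above, 50 had a positive log2 difference and 8 a negative one. In 9 members at least 1 other probe set had the opposite sign to the one used. Some second probe sets gave values close to the first, as in Sparc with 1.23 and 1.15, Col3a1 with 1.10 and 0.97 and Fbln1 with 0.48 and 0.58. A dim further probe set of Sparc was at -0.05, and a dim second one of Des at -0.02.

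Other genes of collagen folding and processing, listed apart from the members, rose in 4 of 17 cases and fell in 0, against 3.82% and 1.52% of all genes. Pcolce, which enhances the trimming of procollagen, had intensities of 484, 450.4 and 570.3 in the DBZ arrays, against 142, 139 and 154 in the vehicle arrays, a log2 fold change of 1.68 ± 0.10 with tight values in each group (limma, adjusted p = 0.00406). Serpinh1, the collagen chaperone, had intensities of 621, 613 and 849.7 in the DBZ arrays, against 204, 238 and 267 in the vehicle arrays, a log2 fold change of 1.49 ± 0.16 (limma, adjusted p = 0.0186). Crtap and P4ha2, of the complexes that hydroxylate prolines of collagen, rose by 1.01 ± 0.15 and 0.87 ± 0.14 (log2 difference ± SE; limma, adjusted p = 0.0303 and 0.0329). The list median was 0.42, beside -0.02 for all genes.

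Of 39 other matrix genes, 14 rose and 0 fell, against 3.82% and 1.52% of all genes, with a median log2 fold change of 0.51. Timp1, an inhibitor of metalloproteinases, had intensities of 439, 179 and 503 in the DBZ arrays, against 45.0, 34.6 and 27.4 in the vehicle arrays, and Vcan, the large proteoglycan versican, at 195, 171 and 327 in the DBZ arrays, against 32.7, 40.9 and 51.9 in the vehicle arrays. Both were dim in vehicle, the groups were far apart, and the log2 fold changes were 2.81 ± 0.38 and 2.06 ± 0.25 (limma, adjusted p = 0.0265 and 0.0229). Thbs1, thrombospondin, and Emilin1, a glycoprotein of elastic fibres, rose by 1.85 ± 0.27 and 0.83 ± 0.11 (log2 difference ± SE; limma, adjusted p = 0.0275 and 0.0265).

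Smooth muscle regulators and contractile partners rose in 5 of 23 cases and fell in 0, against 3.82% and 1.52% of all genes. Their median was 0.66. Flna, filamin, which cross-links actin, had intensities of 1774, 1967 and 1812 in the DBZ arrays, against 466, 766 and 870.2 in the vehicle arrays, and Cald1, caldesmon, at 4662, 4567 and 4550.2 in the DBZ arrays, against 1885, 2289 and 2821 in the vehicle arrays. The groups were apart for both and the log2 fold changes were 1.43 ± 0.22 and 0.99 ± 0.14 (limma, adjusted p = 0.0311 and 0.0275). Synm, an intermediate filament protein of muscle, and Actn1, alpha actinin, rose by 1.11 ± 0.18 and 0.80 ± 0.09 (log2 difference ± SE; limma, adjusted p = 0.0324 and 0.0204). Of 11 nonmuscle actin and myosin genes, with a median of 0.07, 0 fell and 2 rose, against 1.52% and 3.82% of all genes. The 2 that rose were the tropomyosin Tpm4, at 1.00 ± 0.16, and the myosin Myh10, at 0.53 ± 0.10 (log2 difference ± SE; limma, adjusted p = 0.0326 and 0.0469).

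Signals of the crypt mesenchyme rose in 4 of 13 cases, against 3.82% of all genes, with a median of 0.47. Grem1, an antagonist of bone morphogenetic proteins made by cells under the crypt, had intensities of 612, 696 and 518 in the DBZ arrays, against 244, 360.1 and 326 in the vehicle arrays, with the groups apart and a log2 fold change of 0.94 ± 0.17 (limma, adjusted p = 0.0380). Pdpn, podoplanin, a surface protein of fibroblasts, and the secreted ligands Wnt5a and Bmp4 rose by 1.52 ± 0.19, 0.63 ± 0.12 and 0.47 ± 0.08 (log2 difference ± SE; limma, adjusted p = 0.0242, 0.0414 and 0.0344). In the TGF-beta pathway, which drives matrix synthesis in fibroblasts, 2 of 13 genes rose and 0 fell, against 3.82% and 1.52% of all genes. The 2 were the receptors Tgfbr2 at 0.95 ± 0.19 and Tgfbr3 at 0.78 ± 0.15 (log2 difference ± SE; limma, adjusted p = 0.0475 and 0.0420). The median was -0.12, and 7 of 13 differences were negative. In 4 every DBZ array lay above every vehicle array, against 17.3% of all genes. In 3 every DBZ array lay below, against 15.8%, Smad4, Smad7 and Tgfbi, at -0.26 ± 0.09, -0.63 ± 0.19 and -0.81 ± 0.34 (log2 difference ± SE).

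Matrix receptors rose in 3 of 20 cases and fell in 0, against 3.82% and 1.52% of all genes, with a median of 0.18. In 8 of the 20 every DBZ array lay above every vehicle array, against 17.3% of all genes. In 3 every DBZ array lay below, against 15.8%, Sdc1, Itga3 and Dag1, at log2 differences of -0.84, -0.21 and -0.13. Ddr2, a collagen receptor of fibroblasts, had intensities of 351, 306 and 339 in the DBZ arrays, against 132, 154 and 165 in the vehicle arrays, a log2 fold change of 1.07 ± 0.10 (limma, adjusted p = 0.0128). The integrin genes Itgb3 and Itga1 rose by 0.62 ± 0.10 and 0.39 ± 0.08 (log2 difference ± SE; limma, adjusted p = 0.0339 and 0.04999). Of 13 genes of the epithelial basement membrane and hemidesmosome, which epithelial cells make themselves, 1 rose and 0 fell, against 3.82% and 1.52% of all genes. The 1 was Dst, at 0.43 ± 0.09, and the list median was 0.06 (log2 difference ± SE; limma, adjusted p = 0.0490). In 5 of the 13 every DBZ array lay above every vehicle array, against 17.3% of all genes. In 2 every DBZ array lay below, against 15.8%, Lama3 at -0.96 ± 0.34 and Agrn at -0.35 ± 0.13 (log2 difference ± SE).

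**Figure D5:**
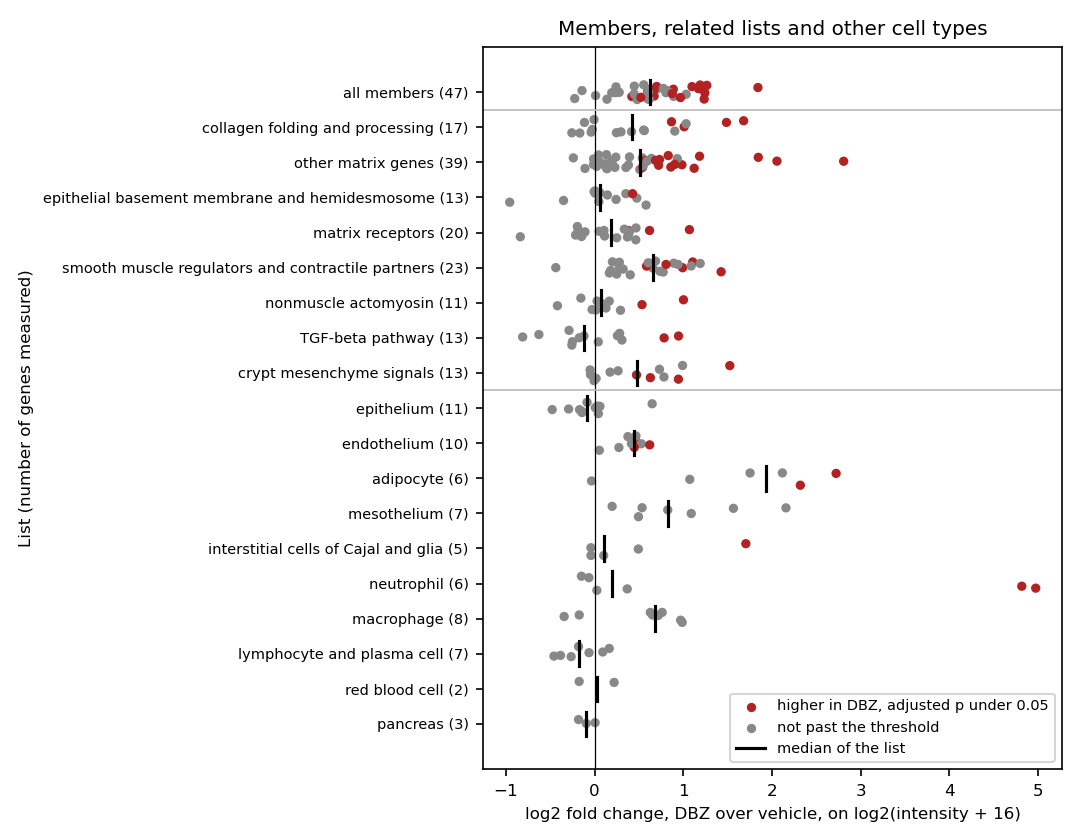
Points give the log2 fold change of each gene, DBZ over vehicle, for the 47 members, the related lists and the markers of other cell types, and black lines the list medians. Medians of the members, other matrix genes and contractile partners lie between 0.51 and 0.66, those of adipocyte, mesothelial and macrophage markers are higher at 1.94, 0.82 and 0.69, and those of epithelial and lymphocyte markers lie below 0.

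Markers of other cell types moved in the same arrays. None of 11 epithelial markers passed the test, 1 being higher and 2 lower at an unadjusted p under 0.05 (limma), and their summed intensity was 110686 to 118274 in DBZ and 109501 to 121339 in vehicle arrays. The summed intensity of the 47 members was 98119 to 113769 in DBZ and 50436 to 69052 in vehicle arrays. Endothelial markers rose in 3 of 10 cases, against 3.82% of all genes, with sums of 1693 to 1934 in DBZ and 1268 to 1341 in vehicle arrays. Pecam1 and Cdh5, which define endothelium, were at 0.43 ± 0.17 and 0.27 ± 0.11, and Esam and Kdr rose by 0.62 ± 0.08 and 0.46 ± 0.07 (log2 difference ± SE; limma, adjusted p = 0.180, 0.179, 0.0229 and 0.0308).

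Adipocyte markers rose in 2 of 6 cases, against 3.82% of all genes, with sums of 5784 to 14575 in DBZ and 1594 to 3521 in vehicle arrays. Adipoq, adiponectin, had intensities of 1451, 1169.9 and 3256 in the DBZ arrays, against 252, 479.5 and 133 in the vehicle arrays, Lep, leptin, had intensities of 16.6, 18.0 and 20.9 in the DBZ arrays, against 20.8, 16.7 and 20.6 in the vehicle arrays, and Retn, resistin, rose by 2.32 ± 0.41 (log2 difference ± SE; limma, adjusted p = 0.0375). Adipoq rose by 2.72 ± 0.54 (log2 difference ± SE; limma, adjusted p = 0.0475). None of 7 mesothelial markers passed, 5 being higher at an unadjusted p under 0.05 (limma), against 15.1% of all genes. Their sums were 484 to 1286 in DBZ and 378 to 412 in vehicle arrays. Upk1b alone gave 323 to 647 of the DBZ sums and 272 to 304 of the vehicle sums. Msln had intensities of 105, 28.4 and 87.1 in the DBZ arrays, against 23.3, 19.8 and 25.0 in the vehicle arrays and Upk3b at 188, 47.0 and 290.4 in the DBZ arrays, against 19.2, 20.9 and 18.1 in the vehicle arrays, lowest among the DBZ arrays in array 2. Of 6 neutrophil markers 2 rose, S100a8 and S100a9, against 3.82% of all genes, with a list median log2 difference of 0.20. S100a8 had intensities of 1486, 308 and 2746 in the DBZ arrays, against 16.9, 17.0 and 24.0 in the vehicle arrays, and the list summed to 699 to 5429.5 in DBZ and 158 to 205 in vehicle arrays. The other 4 did not pass, with log2 differences of 0.37 for Csf3r, 0.03 for Cxcr2, -0.06 for Elane and -0.15 for Mpo.

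Of 5 markers of interstitial cells of Cajal, which pace gut muscle, and of glia, 1 rose, against 3.82% of all genes. Their median log2 difference was 0.10. Kit, also a gene of some epithelial and mast cells, had intensities of 1337, 1179 and 1013 in the DBZ arrays, against 250.1, 419.9 and 398 in the vehicle arrays, a log2 fold change of 1.71 ± 0.21, and Ano1 was at 0.49 ± 0.11 (limma, adjusted p = 0.0229 and 0.0627). Sox10, Gfap and S100b, of glia, had log2 differences of -0.04, -0.04 and 0.10, none past the threshold. Macrophage markers passed in 0 of 8 cases, 6 being higher at an unadjusted p under 0.05 (limma), against 15.1% of all genes. Csf1r was at -0.34 ± 0.24 and Adgre1 at 0.76 ± 0.22 (log2 difference ± SE; limma, adjusted p = 0.408 and 0.0969). The list summed to 3198 to 5479.9 in DBZ and 2983 to 3883 in vehicle arrays. Csf1r was its brightest gene, at 959 to 1552 in DBZ and 1299 to 2079 in vehicle arrays. Lymphocyte and plasma cell markers passed in 0 of 7 cases and in 0 at an unadjusted p under 0.05 (limma). Cd3e and Cd3g had log2 differences of -0.46 ± 0.27 and -0.38 ± 0.28. The list summed to 10662 to 12966 in DBZ and 10169 to 13039 in vehicle arrays. Jchain alone gave 10227 to 12402 and 9372 to 12380 of these sums, so they say little of the other genes. The measured red blood cell and pancreas markers, 2 and 3 genes, passed in 0 cases, 1 of the pancreas genes being lower at an unadjusted p under 0.05 (limma), with log2 differences of -0.17 for Hba-a1, -0.18 for Cpa1 and 0.01 for Cela1.

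The endothelial, adipocyte, mesothelial, neutrophil, macrophage, and lymphocyte and plasma cell sums were lowest, among the DBZ arrays, in DBZ array 2. The epithelial, interstitial cell and glial, and red blood cell sums were lowest in DBZ array 3, and the pancreas sum in DBZ array 1. DBZ array 2 was the lowest DBZ array for 22 of 47 members, and DBZ array 1 for 20 of 47. The members' own sum was lowest in DBZ array 1, at 98119 against 103067 and 113769 in DBZ arrays 2 and 3. Bright contractile genes weigh most in that sum, and their mean log2 was also lowest in DBZ array 1, at 12.51. Averaged as log2 over all 47 members, the lowest was DBZ array 2, at 9.87 against 9.89 and 10.11 in DBZ arrays 1 and 3. The median log2 differences of the adipocyte, mesothelial and macrophage markers, 1.94, 0.82 and 0.69, were above the 0.63 of the members. The part of other cell types in the members' values was not tested.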

How the data were processed

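The authors deposited probe set intensities on a linear scale for 6 Affymetrix arrays, 45101 probe sets each. The 3' IVT Express Kit amplified and labelled the RNA, per the labels' protocols. How the scans were turned into intensities, with which software and normalization, is not stated in the sources used here. The probe table gave a single symbol to 34945 probe sets, several to 932 and none to 9160, leaving out 64 controls. Of the 48 listed genes 1 had no probe set under its symbol and is not analysed here. Array medians differed by 0.034 on the log2 scale, so values were not normalized again.

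Values were tested as log2(intensity + 16), which understates changes of dim genes, with limma 3.58.1 in R 4.3.3 (lmFit, eBayes, two-sided, Benjamini-Hochberg over 18193 genes). The prior added 2.21 degrees of freedom. On simulated arrays of these 18193 genes the fit called 81% of the genes shifted by 1 on the log2 scale and 97% of those shifted by 2. Of its calls, 6.32% were of genes not shifted. Each gene was drawn independently from a normal distribution with its own estimated SD, with no array or RNA quality effect shared by genes. These shares therefore need not hold for the real arrays. An exact permutation test of 3 against 3 cannot go below p = 0.1. The number of arrays limits precision. Titles call the arrays biological replicates, each from a mouse.

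The members, roles, related lists, cell type lists and alternatives were chosen with earlier results of these data known, so no list was given a p. All 47 measured members are named. From related lists up to 4 genes past the threshold are named, or the first 2 markers of a cell type and up to 2 past the threshold. The further neutrophil and glial markers, and the other probe sets given, were added after their values were seen. So were the genes of related lists with DBZ below vehicle, and the alternatives given for single genes. Promoter sequences are RefSeq's, GRCm38.p6. Alternatives were quantile normalization, median centring, pseudocounts of 1 and 64, leaving out dim genes, other probe sets, other variance models, a replicate block, array weights, a threshold of 0.1 and leaving out each array.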

Additional observations from a re-analysis of the deposited data

How the results depend on the processing

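Of the 47 members, 20 were higher with the settings reported. The count was 12 with a pseudocount of 64, 32 of 41 with dim genes left out, 31 with array weights, 38 at a threshold of 0.1 and 0 with ordinary t statistics, where 40 had an unadjusted p under 0.05. All genes past the threshold, 972 as reported, numbered 440, 1257, 2690, 2575 and 0 with these settings in turn. Leaving out each array in turn gave 0 to 21 members higher and 19 to 2032 of all genes, in fits with fewer samples. The other settings gave 16 to 26 members and 761 to 1353 of all genes, and no setting called a member lower. The median log2 fold change of the members lay between 0.56 and 0.72. Members with all DBZ arrays below all vehicle arrays, 1 as reported, numbered 0 with array medians centred and with dim genes left out, and 1 to 2 without an array.

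In the 13 alternatives that alter fold changes, 4 of 611 values of single members changed sign, all of Lox, which was at 0.01 as reported. It was at -0.037 with quantile normalization and -0.24 with array weights, and ranged from -0.28 without DBZ replicate 3 to 0.21 without DBZ replicate 2; the cause was not tested. Deviations from the group means correlated at -0.009, 0.25 and 0.20 between the arrays sharing number 1, 2 and 3. Arrays of unlike numbers were not compared, so whether the numbers pair the arrays cannot be told. With the replicate block 24 members and 889 of all genes passed.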

Other observations

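The genes outside all lists whose 6 values ran closest to the mean profile of Col1a1, Col1a2 and Col3a1 were Myrip, Ly6e, Tmprss2, Skap2, Sdcbp, Atf6b, Ncald, Ccl11, Gusb and Gmds, at Pearson correlations of 0.995 to 0.999 over 6 arrays that fall into 2 groups. Being chosen by their likeness to genes that were higher in DBZ, they were higher too, by log2 differences of 0.39 (Sdcbp) to 1.68 (Tmprss2), which is no further result. Ccl11, eotaxin, a chemokine that attracts eosinophils, was at 248, 278 and 353 in the DBZ arrays, against 108, 109 and 137 in the vehicle arrays, with the groups apart. Tmprss2, a membrane protease of epithelial cells, was at 2121, 3129 and 4594 in the DBZ arrays, against 872, 921 and 1120.3 in the vehicle arrays.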
